A study of Mus musculus with 24 samples.

Results

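Lungs of 129 mice that carried a TGF-β1 transgene were compared with lungs of transgenic (TG) mice of 5 other inbred strains. The 3 mice titled TG_129 were taken from 24 mice in all and set against the 14 other TG mice, with the 5 strain means weighted equally. The wild-type (WT) mice, 1 of 129 and 6 of the other strains, gave the difference between strains without the transgene. The 129 TG, A/J TG, AKR/J TG, Balb/cJ TG and C3H TG groups had 3 mice each and the C57BL6/J TG group had 2. Each WT group had 1 mouse, except C57BL6/J WT with 2. All mice, WT included, had received doxycycline in the drinking water for 2 weeks, which induces the transgene in TG mice. RNA came from the right lobe of the lung.

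The strain is S129 in the sample labels and 129Si/J in the design text, which counts it with Balb/cJ and C3H among the strains resistant to fibrosis. The labels of each sample also carry a numbered fibrosis code whose legend gives the opposite grouping, with 129 as prone; the design text is followed here. The labels also call 129 and C3H non-emphysematous. The promoter that drives the transgene, the age and sex of the mice, and how the transgene was brought into each strain were not stated in the labels.

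TGF-β1 is a secreted growth factor that signals through a receptor kinase and Smad proteins. In lung it induces collagen and other matrix genes in fibroblasts and restrains the growth of epithelial cells, and its overproduction leads to scarring. Inbred strains carry fixed sequence differences, so a gene can differ between strains with or without the transgene.

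The arrays gave log2 intensities for 13499 genes, with array medians between 7.759 and 7.835 and lung markers at high levels. Sftpc, the surfactant protein C of alveolar type 2 cells, had 14.38, 14.40 and 14.38 in 129 TG lungs, against a range of 14.21 to 14.46 in the other TG lungs. H2-Ea, a class II antigen gene that is not transcribed in mice of the H2 b haplotype, served as a check of strain. It had 6.74, 6.27 and 6.52 in 129 TG lungs, against 6.60 to 6.90 in C57BL6/J TG lungs and 13.10 to 13.55 in the other 4 strains. Nnt, a mitochondrial transhydrogenase that is partly deleted in C57BL/6J mice, had 9.83, 9.97 and 10.13 in 129 TG lungs, against 9.58 to 9.62 in C57BL6/J TG lungs, at most 10.05 in C3H TG lungs, and 10.26 to 10.52 in the other 3 strains. In a principal component analysis over all genes, the third component (10.3% of the variance) set all 4 mice of 129 apart from the rest. Their scores were 15.6 to 17.8 in 129 TG mice and 12.9 in the 129 WT mouse, against -9.3 to 2.2 in the other 20 mice.

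**Figure D1:**
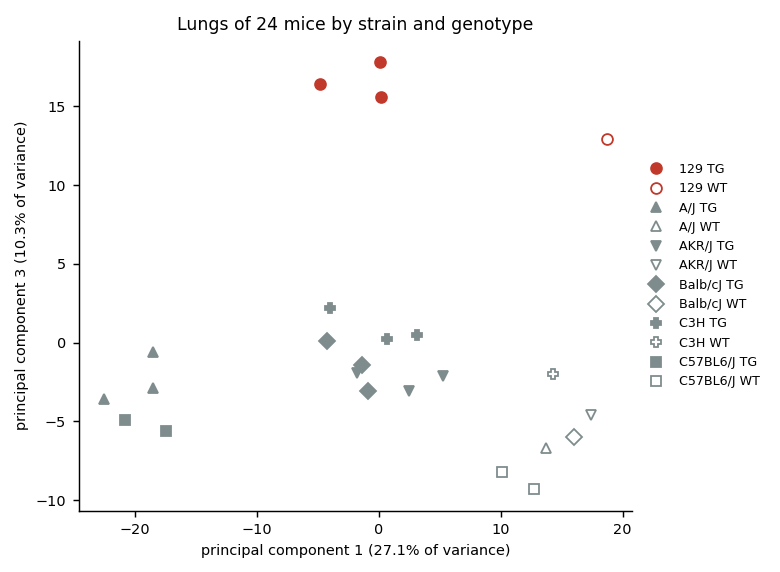
Principal component 1 (x axis) and principal component 3 (y axis) of the 24 lungs, with the share of variance on each axis; filled symbols are TG mice, open symbols WT mice, and red marks 129. The 3 TG mice and the WT mouse of 129 lie at 12.9 or above on the third component, and the other mice at 2.2 or below.

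Between 129 TG and other TG lungs, 1158 genes (8.58% of those tested) had an adjusted p under 0.05 in limma, 584 (4.33%) higher and 574 (4.25%) lower in 129. The difference was 2-fold or more for 39 of them, 23 higher and 16 lower. The 3 mice of 129 lay wholly above or wholly below the 14 other TG mice for 326 genes (2.41%), 158 above (1.17%) and 168 below (1.24%), and 298 of these were also called. The p-values measure spread between mice of these 6 strains. With the strain mean as the unit, so that 129 is 1 strain against 5, limma called 0 genes and 537 (3.98%) had an unadjusted p under 0.05, which means that the calls describe these 129 mice and do not show that 129 lies outside the spread among strains. Of the genes called over mice, 957 (82.6%) had the 129 mean beyond the means of all 5 other strains, against 29.4% of all genes. These genes were called for a 129 mean that differed from those same 5 means, so the higher share follows in part from the selection. It therefore says nothing further on the spread among strains.

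Among the genes that stood above, the 2 with the largest mean differences also differed between other strains. BC018473, for which no role is given here, had 10.93, 9.95 and 10.24 in 129 TG lungs, against a lowest value of 6.13, a median of 6.26 and a highest of 9.61 in the other TG lungs (log2 difference 3.50, SE 0.16, adjusted p 8.6e-10). A/J was near 129, with 8.70 to 9.61 in TG mice and 11.01 in the WT mouse, and the remaining 4 strains stayed at 6.71 or below in TG mice. Cntn1, which encodes a contactin, a membrane-anchored adhesion protein best known from neurons, had 8.85, 9.15 and 8.81 in 129 TG lungs, against a lowest of 6.18, a median of 6.47 and a highest of 8.26 in the other TG lungs (2.28, SE 0.18, adjusted p 7.4e-07). C3H was its nearest strain, with 7.13 to 8.26. Both genes were as high in the 129 WT lung, at 10.61 for BC018473 and 9.41 for Cntn1.

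Upk1b, a uroplakin of epithelial and mesothelial surfaces, had 10.81, 10.80 and 10.75 in 129 TG lungs, against a lowest of 8.77, a median of 9.32 and a highest of 10.46 in the other TG lungs (1.19, SE 0.10, adjusted p 1.7e-06). C57BL6/J, at 10.28 to 10.40, and C3H, at 10.09 to 10.46, were close below it. Elovl7, an enzyme that lengthens fatty acids, had 9.43, 9.49 and 9.46 in 129 TG lungs, against a lowest of 8.01, a median of 8.48 and a highest of 8.94 in the other TG lungs (0.97, SE 0.09, adjusted p 6.4e-06). No other strain reached the 129 level of either gene. Sptssb, a small subunit of serine palmitoyltransferase, the first enzyme of sphingolipid synthesis, was 2.21-fold higher, and Ctse, the aspartic protease cathepsin E, was 2.11-fold higher. Slc5a12, a sodium-coupled lactate transporter, was 2.36-fold higher, and Wfdc10, of the whey acidic protein family of small secreted proteins, 2.12-fold higher. For these 4 genes the 129 TG mice did not overlap the other TG mice.

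Igha and Dcstamp stood above in the TG lungs and were not called between the WT lungs. Igha, the constant region of the IgA heavy chain, had 9.93, 9.62 and 10.36 in 129 TG lungs, against a lowest of 7.61, a median of 8.42 and a highest of 9.60 in the other TG lungs (1.42, SE 0.22, adjusted p 0.00062). The lowest 129 mouse was thus just above the highest C57BL6/J mouse. The 129 WT lung, at 8.94, lay inside the range of the other WT lungs, 8.19 to 10.36. Dcstamp, a membrane protein needed for the fusion of osteoclast and macrophage precursors, had 7.58, 7.56 and 8.42 in 129 TG lungs, against a lowest of 6.10, a median of 6.43 and a highest of 7.06 in the other TG lungs (1.31, SE 0.17, adjusted p 0.00012). The 129 WT lung had 6.82 for Dcstamp, against 6.16 to 6.47 in the other WT lungs.

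Of the genes that stood below, AI506816 had the largest mean difference. AI506816, for which no role is given here, had 4.59, 5.16 and 5.51 in 129 TG lungs, against a lowest of 6.02, a median of 9.54 and a highest of 11.18 in the other TG lungs (-4.29, SE 0.33, adjusted p 5.9e-07). Balb/cJ was the nearest strain at 6.02 to 7.29, and the other 4 strains were at 8.82 or above. Nrcam, a neuronal cell adhesion molecule of the immunoglobulin superfamily, had 8.01, 8.40 and 8.67 in 129 TG lungs, against a lowest of 9.27, a median of 9.91 and a highest of 10.70 in the other TG lungs (-1.60, SE 0.12, adjusted p 4.8e-07). Ctnnd2, the delta-catenin that binds cadherins, had 8.07, 8.12 and 8.49 in 129 TG lungs, against a lowest of 9.37, a median of 9.58 and a highest of 9.76 in the other TG lungs (-1.33, SE 0.08, adjusted p 7.1e-08). For Ctnnd2 the 14 other TG mice lay close together and 129 lay clear below them, and it had the lowest adjusted p, 0.057, with strains as the unit.

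Anxa8, a calcium-dependent phospholipid-binding annexin, had 7.42, 7.74 and 7.19 in 129 TG lungs, against a lowest of 8.67, a median of 9.0 and a highest of 9.53 in the other TG lungs (-1.59, SE 0.13, adjusted p 1.5e-06). Syt15, a synaptotagmin, was 2.60-fold lower, and Scube1, a secreted and cell-surface protein with EGF and CUB domains, 2.59-fold lower. Gm4951 and Iigp1, members of the interferon-induced GTPases that act against intracellular parasites, were 2.97-fold and 1.82-fold lower. Veph1, a protein with a pleckstrin homology domain, was 2.14-fold lower, and Elapor2 was 1.86-fold lower. None of these 7 genes overlapped between 129 TG and other TG mice. The protocadherin genes Pcdhb6 (0.99) and Pcdhb9 (-1.28) went in opposite directions on the log2 scale.

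**Figure D2:**
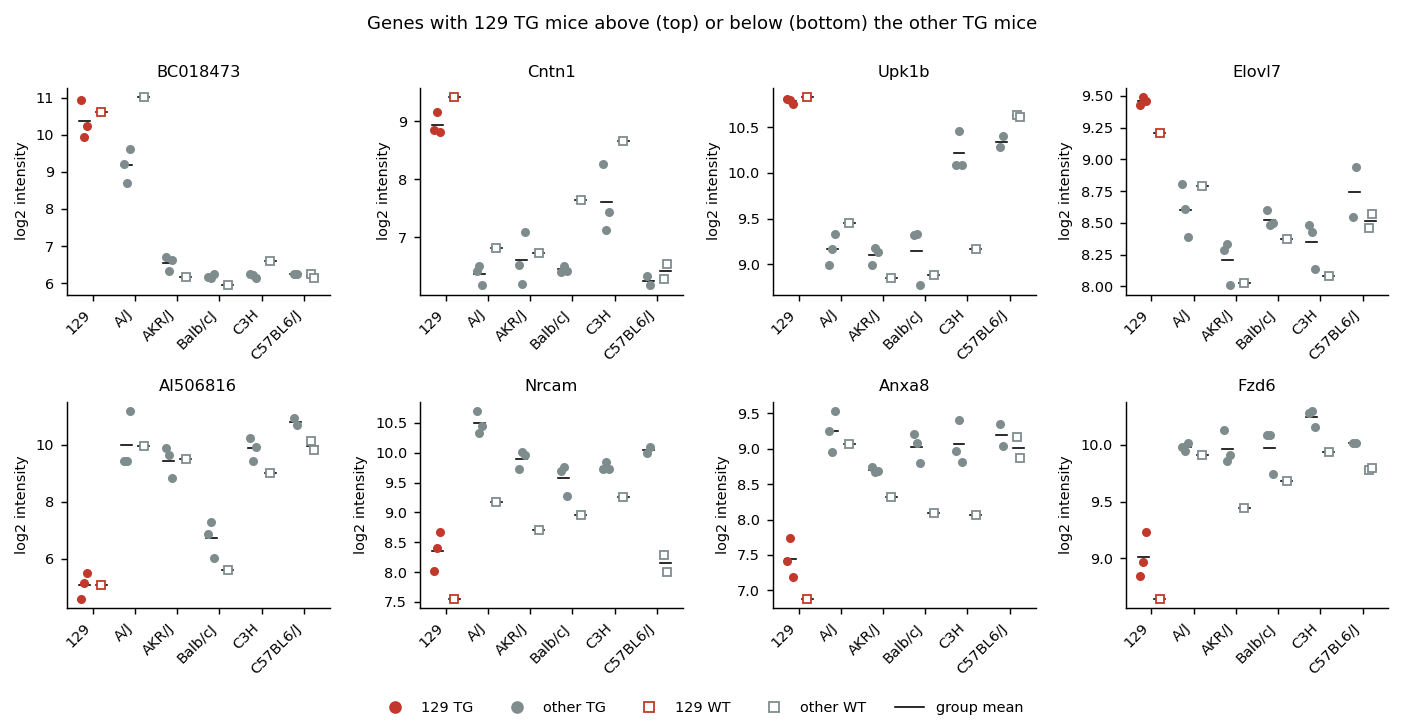
Log2 intensity (y axis) of 8 genes in each mouse, by strain (x axis), with TG mice as filled circles left of WT mice as open squares, 129 in red and a bar at each group mean. In the upper row the 3 TG mice of 129 lie above all other TG mice, with A/J nearest for BC018473 and C3H nearest for Cntn1, and in the lower row they lie below all other TG mice.

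Most of the difference between 129 TG and other TG lungs had the same sign without the transgene. The 129 WT lung differed from the other WT lungs in 198 genes (1.47%) in limma, 107 higher (0.793%) and 91 lower (0.674%); the single 129 WT mouse is assumed to vary like the other groups. Of the 1158 genes called in TG lungs, 1003 (86.6%) had the same sign in WT lungs, against 63.8% of all genes. The TG and WT comparisons share no mice. They had 113 called genes in common, all in the same direction, which is 9.8% of the TG calls and 57.1% of the WT calls. Across all genes, which are not independent replicates, the 2 differences had a Pearson correlation of 0.62. Of the 298 called genes without overlap between TG mice, 174 (58.4%) had the 129 WT mouse outside the other 6 WT mice on the same side. Over all genes that mouse lay above the other 6 for 19% and below them for 12.4%.

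**Figure D3:**
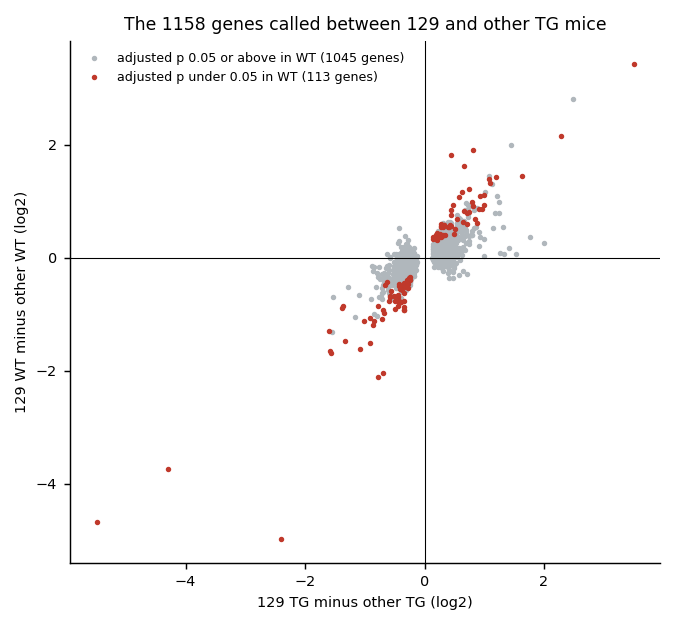
Difference between 129 TG and other TG lungs (x axis, log2) against the difference between 129 WT and other WT lungs (y axis, log2) for the 1158 genes called in TG lungs; red points were also called in WT lungs. The 113 red points all have the same sign on both axes, and most grey points fall in the same quadrants.

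Genes with a strain difference in both genotypes included BC018473 (3.50 in TG and 3.42 in WT), Cntn1 (2.28 and 2.16), Upk1b (1.19 and 1.43), AI506816 (-4.29 and -3.74), Anxa8 (-1.59 and -1.64), Gm4951 (-1.57 and -1.69) and Ctnnd2 (-1.33 and -1.47). All 7 were called in both comparisons. Others called in WT lungs and higher in 129 were Bche, the butyrylcholinesterase (1.63 in TG and 1.45 in WT), Wfdc8, of the same family as Wfdc10 (0.81 and 1.90), and Hsd3b2, a steroid dehydrogenase (0.66 and 1.63). The small guide RNA Snora16a was higher in the 129 WT lung (1.90, adjusted p 0.0028) and had 0.51 in TG lungs (adjusted p 0.082).

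Bpifa1, Bpifb1 and Scgb3a1, products of airway secretory cells, were lower in the 129 WT lung. Bpifa1, a BPI fold protein secreted by airway epithelium, had 7.19 in the 129 WT lung, against a lowest of 11.06, a median of 12.19 and a highest of 12.97 in the other WT lungs (-4.97, SE 0.65, adjusted p 0.00061). In TG lungs it had 9.65, 8.33 and 10.87 in 129, against a lowest of 10.87, a median of 12.15 and a highest of 12.90 in the other strains (-2.40, SE 0.38, adjusted p 0.00083). The 129 TG mice thus spread widely, all above the 129 WT mouse, and the highest met the lowest C57BL6/J mouse. Bpifb1, its relative in the same gene cluster, had 9.37 in the 129 WT lung, against 9.98 to 12.49 in the other WT lungs (-1.75, adjusted p 0.035), and in TG lungs had 11.46, 11.72 and 11.63 in 129, inside the range of 9.93 to 12.67 in the other strains. Scgb3a1, a secretoglobin of airway secretory cells, had 11.14 in the 129 WT lung, against 12.29 to 13.05 in the other WT lungs (-1.55, adjusted p 0.040). Ppbp, a platelet chemokine, had 7.87 in the 129 WT lung, against 8.37 to 12.58 in the other WT lungs (-2.03, adjusted p 0.0080). These WT differences rest on 1 mouse. Of the 19 measured goblet and mucous genes, Bpifa1 and the mucin gene Muc20 (-0.48) were lower in 129 TG lungs and the mucin gene Muc4 (0.47) higher. That is 15.8% of the list, against 8.58% of all genes. C57BL6/J TG lungs were at the 129 level for both mucin genes, with 8.0 and 8.04 for Muc20 and 9.77 and 9.82 for Muc4. The mean of the 19 genes was 7.79 in the 129 WT mouse, against 8.14 to 8.74 in the other WT lungs, while the mean of the 13 club cell genes was 11.66, inside the range of 11.47 to 11.89. Whether the airway content of this sample played a part was not tested.

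The difference of the transgene effects was itself called for 2 genes of 13499 (0.0148%), 1 in each direction (0.00741% each), with 897 (6.64%) at an unadjusted p under 0.05. Chil1, a secreted chitinase-like protein of macrophages and epithelium, had 13.22, 13.02 and 13.01 in 129 TG lungs, against a lowest of 13.43, a median of 13.90 and a highest of 14.21 in the other TG lungs (-0.78, SE 0.09, adjusted p 2.9e-05). It had 11.32 in the 129 WT lung, against 13.08 to 13.81 in the other WT lungs (-2.10, SE 0.15, adjusted p 6.0e-07). The 129 lungs lay below the others in both genotypes, by less in TG mice, so the TG effect in 129 exceeded that of the other strains by 1.33 (SE 0.17, adjusted p 0.0042). Against the 2 other resistant strains alone this was 1.12 (adjusted p 0.083). Scarna13, a guide RNA of Cajal bodies, ran the other way. It had 9.42, 9.51 and 9.45 in 129 TG lungs, against 8.64 to 9.26 in the other TG lungs, and 11.25 in the 129 WT lung, against a lowest of 9.02, a median of 9.12 and a highest of 10.80 in the other WT lungs. The difference of effects was -1.36 (SE 0.16, adjusted p 0.0018), and the highest of the other WT lungs was that of A/J. In A/J TG lungs Scarna13 had 8.64, 9.11 and 8.91, so A/J also dropped from WT to TG. The calls of Chil1 and Scarna13 both rest on the single 129 WT mouse.

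**Figure D4:**
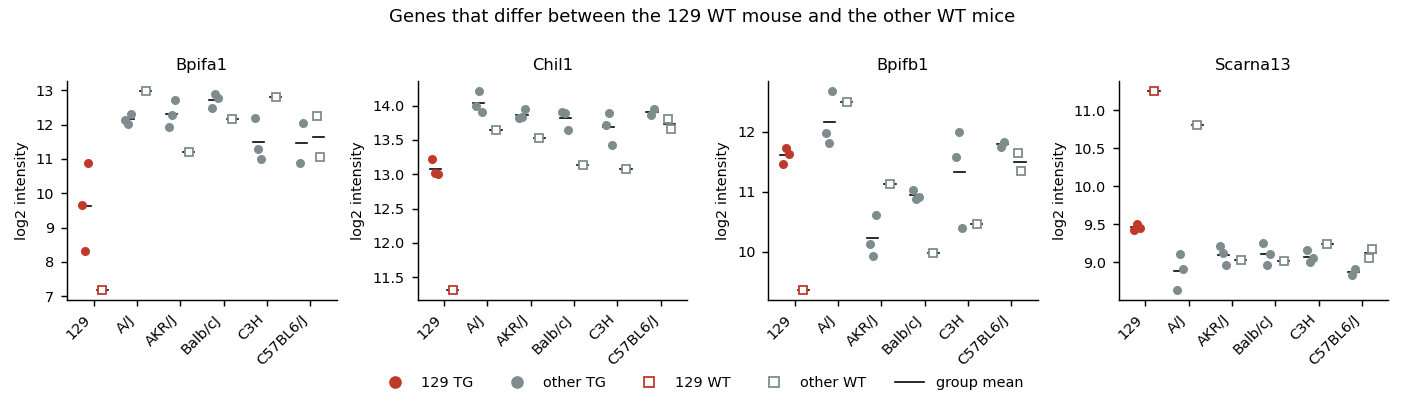
Log2 intensity (y axis) of Bpifa1, Chil1, Bpifb1 and Scarna13 in each mouse, by strain (x axis), with TG mice as filled circles left of WT mice as open squares, 129 in red and a bar at each group mean. The 129 WT mouse lies at 7.19 for Bpifa1 and 11.32 for Chil1, below the other WT mice, and at 11.25 for Scarna13, above them.

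The sequences before these secreted-protein genes are shown because Bpifa1 and Chil1 were far lower in the 129 WT lung, while Bpifa2, a salivary and airway secretory protein of the same cluster as Bpifa1, was higher in 129 TG lungs. Each runs from 250 bases before to 50 bases after the annotated start in the RefSeq annotation of GRCm38.p6, which is the C57BL/6J reference and not 129 sequence. Capitals mark TATAAA. Each motif was searched on both strands. One was TATAAA, the box that positions the start of transcription. Another was CAGAC, of the CAGA box bound by Smad proteins. The last was TTCNNNGAA, bound by STAT proteins, which reads the same on both strands. TATAAA occurred in 13.6% of 32851 promoters, CAGAC in 49.6% and TTCNNNGAA in 8.3%. The 1 match in these windows was TATAAA in Bpifa1, 29 bases before the start.
Bpifa1, chr2:154142630-154142929, plus strand: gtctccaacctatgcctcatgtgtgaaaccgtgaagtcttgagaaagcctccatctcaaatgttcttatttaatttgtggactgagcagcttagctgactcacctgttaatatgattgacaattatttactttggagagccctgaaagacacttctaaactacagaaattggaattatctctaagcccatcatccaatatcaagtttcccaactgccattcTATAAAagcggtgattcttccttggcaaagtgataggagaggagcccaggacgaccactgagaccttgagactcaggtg
Bpifa2, chr2:154008026-154008325, plus strand: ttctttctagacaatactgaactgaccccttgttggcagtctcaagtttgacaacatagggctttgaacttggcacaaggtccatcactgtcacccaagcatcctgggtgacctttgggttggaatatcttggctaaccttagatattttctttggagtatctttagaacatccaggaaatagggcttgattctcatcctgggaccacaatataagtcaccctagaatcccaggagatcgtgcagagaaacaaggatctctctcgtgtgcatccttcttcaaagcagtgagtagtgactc
Chil1, chr1:134181906-134182205, plus strand: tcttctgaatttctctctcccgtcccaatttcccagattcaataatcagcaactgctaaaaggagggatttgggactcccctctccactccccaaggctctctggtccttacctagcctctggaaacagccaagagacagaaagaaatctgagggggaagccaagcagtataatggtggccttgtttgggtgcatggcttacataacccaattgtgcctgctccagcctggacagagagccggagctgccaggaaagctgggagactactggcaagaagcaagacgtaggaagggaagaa

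Bpifa2 had 8.22, 9.40 and 8.19 in 129 TG lungs, against a lowest of 6.03, a median of 6.36 and a highest of 7.64 in the other TG lungs (2.00, SE 0.25, adjusted p 0.00012). The groups did not overlap. In WT lungs it had 7.17 in 129, against 6.21 to 7.81 in the other strains. Of the 15 measured BPI fold genes, Bpifa2 was higher and Bpifa1 lower in 129 TG than in other TG lungs, and the other 13 did not pass the test, with Bpifb1 at 0.32 and Bpifa5 at -0.21. Thus 13.3% of them were called, against 8.58% of all genes. Whether the probe sets tell all members of this family apart was not tested.

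Other called genes lay beside or near each other, in stretches chosen after their values were seen. On chromosome 15, Fzd6, a frizzled receptor for Wnt ligands, had 8.84, 8.97 and 9.23 in 129 TG lungs, against a lowest of 9.74, a median of 10.02 and a highest of 10.30 in the other TG lungs (-1.02, SE 0.08, adjusted p 5.9e-07). The next measured gene, Cthrc1, a secreted collagen triple helix protein of injured tissue, had 8.0, 7.65 and 7.95 in 129 TG lungs, against a lowest of 8.06, a median of 8.56 and a highest of 9.15 in the other TG lungs (-0.67, SE 0.09, adjusted p 0.00012). Neither gene overlapped between the groups. Dcstamp, with its higher level, lies a few genes on, after Slc25a32 (-0.07), Dcaf13 (-0.16) and Rims2 (-0.24), which were not called. In the Wfdc stretch on chromosome 2, 7 of 24 measured genes were higher in 129 TG lungs (4.33% of all genes were) and 0 lower, among them Wfdc8, Wfdc10, Wfdc2 (0.33) and Wfdc3 (0.21). Of 21 genes of the Pcdhb stretch on chromosome 18, 4 were higher and 1 lower, and these genes are close copies whose probe sets may share signal. Anxa8 and Syt15 on chromosome 14 lie with Npy4r (-0.05) and Gprin2 (-0.08) between them, and Gm4951 and Iigp1 on chromosome 18 with Gm4841 (-0.13) between them; the intervening genes were not called. Over the genome, 9 of 13424 pairs of measured neighbours were both called and without overlap, 7 of them in the same direction. They took in 17 of the 298 genes (5.7%). Over all genes 2.21% were called and without overlap, but most genes have a neighbour on each side, so these shares are not alike. Whether 9 pairs are more than a share of 2.21% would give was not tested.

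Matrix genes differed in a few members. Of 26 measured matricellular genes and TGF-β targets, 5 were lower and 1 higher in 129 TG lungs, so that 23.1% were called against 8.58% of all genes, with a median log2 difference of -0.02 (-0.00 over all genes). Postn, the matricellular protein periostin, had 11.68, 11.95 and 11.84 in 129 TG lungs, against a lowest of 12.16, a median of 12.35 and a highest of 12.67 in the other TG lungs (-0.58, SE 0.07, adjusted p 3.9e-05). Ccn4, a CCN-family matricellular protein, had 8.01, 8.47 and 8.33 in 129 TG lungs, against a lowest of 8.70, a median of 8.94 and a highest of 9.27 in the other TG lungs (-0.68, SE 0.10, adjusted p 0.00045). Both genes were without overlap and also lower in the 129 WT lung, by -0.70 for Postn and -0.98 for Ccn4. The thrombospondins Thbs2 (-0.47) and Thbs4 (-0.50) were lower too, with overlap. Ccn3, of the same family as Ccn4, was higher (0.70, SE 0.14, adjusted p 0.0054). It overlapped with A/J TG lungs, which had 9.29, 8.4 and 9.2, against 9.19, 9.15 and 9.21 in 129 TG lungs. Against the 2 other resistant strains alone, 4 genes of the list were lower and 2 higher. Postn, Ccn4 and Cthrc1 were among the lower genes there and Ccn3 among the higher.

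Of 17 collagen and crosslinking genes, Plod1, a lysyl hydroxylase, was higher (0.54, SE 0.09, adjusted p 0.00087) and Adamts14, a procollagen protease, lower (-0.28, SE 0.07, adjusted p 0.014), with a median of -0.05. Thus 11.8% were called, against 8.58% of all genes. A/J TG lungs had a like level of Plod1, 10.96, 11.04 and 11.21, against 11.08, 11.21 and 11.10 in 129. Between 129 WT and other WT lungs Plod1 differed by 0.57. Col1a1 and Col3a1, chains of the main fibrillar collagens, chosen after their values were seen, had differences of -0.17 (adjusted p 0.26) and -0.08 (adjusted p 0.59). Within 129 a matrix response to the transgene was seen against the single 129 WT mouse, which is assumed to vary like the other groups. Between 129 TG and 129 WT lungs, 398 genes (2.95%) were called in limma, 210 higher (1.56%) and 188 lower (1.39%). Among them, 6 of the 17 collagen and crosslinking genes and 7 of the 26 matricellular genes rose with none falling. Further genes chosen after their values were seen show its size. Col3a1 had 10.55, 10.63 and 10.74 in 129 TG lungs, against 9.57 in the 129 WT lung (1.07, adjusted p 0.00034), and Tnc, the matrix glycoprotein tenascin C, had 10.22, 10.28 and 11.04 in 129 TG lungs, against 9.0 in the 129 WT lung (1.51, adjusted p 0.011). Pmepa1, which dampens Smad signalling as a target of TGF-β, was higher by 1.28 (adjusted p 0.00051), Itgb6, the integrin chain that activates latent TGF-β, by 1.59 (adjusted p 4.0e-05), and Lrg1, a secreted leucine-rich glycoprotein, by 2.25 (adjusted p 0.00013).

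The cell cycle genes were lower in 129 TG lungs, in a comparison that depended on which strains stood against them. Of 39 measured genes of replication and mitosis, 20 were lower and 0 higher, while 4.25% of all genes were lower, and the median was -0.36 against -0.00 over all genes. Without the first 129 TG mouse 11 were lower, without the second 12 and without the third 14. Bub1, a mitotic checkpoint kinase, had 6.59, 6.73 and 6.48 in 129 TG lungs, against a lowest of 6.28, a median of 7.21 and a highest of 8.96 in the other TG lungs (-0.86, SE 0.17, adjusted p 0.0048). Mcm6 of the replicative helicase (-0.76), Top2a, the topoisomerase of dividing cells (-0.72), and Aurkb, a mitotic kinase (-0.67), were lower as well. The mean level of the 39 genes was 7.29, 7.39 and 7.34 in 129 TG lungs, against 8.17 to 8.66 in A/J TG, 7.87 to 7.97 in C57BL6/J TG, 7.43 to 7.65 in C3H TG, 7.29 to 7.49 in AKR/J TG and 7.20 to 7.48 in Balb/cJ TG. The 129 mice thus lay below A/J, C57BL6/J and C3H and among AKR/J and Balb/cJ. Against the prone strains alone 36 genes were lower, and against the 2 other resistant strains alone limma called 0 (2 at an unadjusted p under 0.05), with a median of -0.07. Without A/J 6 were lower, and without C57BL6/J 12. In the WT lungs the median was -0.16, and limma called 0 (6 at an unadjusted p under 0.05).

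**Figure D5:**
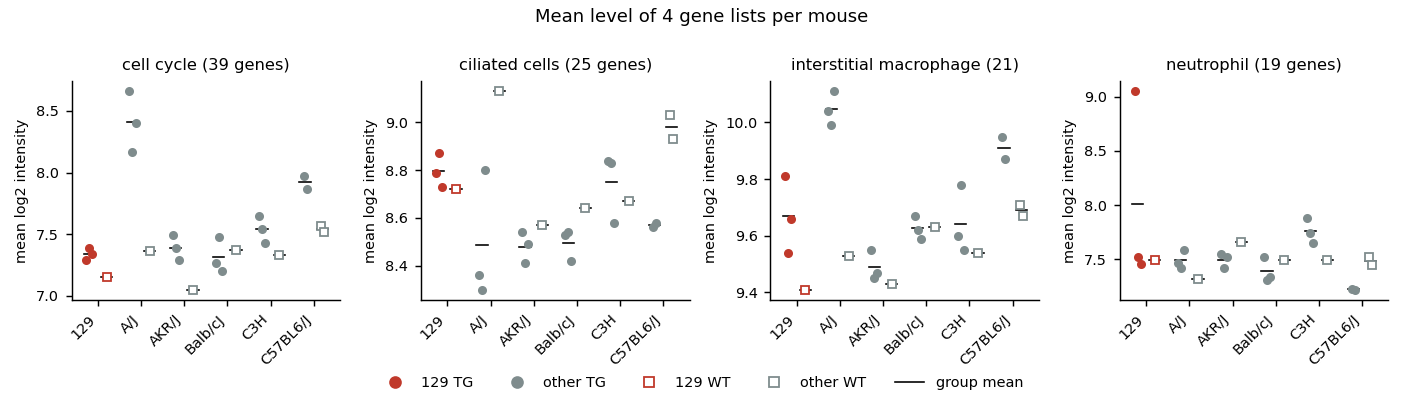
Mean log2 intensity (y axis) of the measured cell cycle, ciliated cell, interstitial macrophage and monocyte, and neutrophil genes in each mouse, by strain (x axis), with TG mice as filled circles left of WT mice as open squares, 129 in red and a bar at each group mean. The 129 TG mice lie below A/J, C57BL6/J and C3H for the cell cycle genes, and 1 of the 3 stands far above all other mice for the neutrophil genes.

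Some ciliated and club cell genes were higher in 129 TG than in other TG lungs. Of 25 measured ciliated cell genes, 8 were higher and 0 lower, with a median of 0.21, while 4.33% of all genes were higher and 4.25% lower. Sntn, a protein of the ciliary tip, had 10.22, 10.34 and 10.09 in 129 TG lungs, against a lowest of 8.68, a median of 9.29 and a highest of 10.47 in the other TG lungs (0.75, SE 0.18, adjusted p 0.015). Cfap54 (0.57) and Cfap52 (0.43), proteins of the axoneme, and Dnah12 (0.47), a dynein heavy chain, were higher as well. All 8 overlapped the other TG mice. Foxj1, the regulator of the motile cilium programme, chosen after its values were seen, had 0.22 (adjusted p 0.069). Of 13 club cell genes 5 were higher and 0 lower, with a median of 0.18. Cyp4b1, a cytochrome P450 of club cells, had 12.34, 12.37 and 12.05 in 129 TG lungs, against a lowest of 10.37, a median of 12 and a highest of 12.37 in the other TG lungs (0.64, SE 0.10, adjusted p 0.00085). Retnla, a resistin-like protein and the member of the list with the largest mean difference, had 1.24 (adjusted p 0.064). Chad, a matrix protein (0.71), and Scgb3a2, a secretoglobin (0.59), were higher too. For Chad, C57BL6/J TG lungs had a like level, 10.23 and 10.26, against 10.21, 10.29 and 10.1 in 129 TG lungs. Cyp4b1 and Scgb3a2 were called against the prone strains and, with 0.22 and 0.33, not against the 2 other resistant strains. Between 129 WT and other WT lungs the list medians were -0.11 for ciliated and 0.02 for club cell genes. From 129 WT to 129 TG lungs they were 0.04 and -0.29, so club cell genes were mostly lower with the transgene. The TG effect in 129 minus that of the other strains had medians of 0.33 and 0.27. These medians rest on the single 129 WT mouse. In bulk lung, more cells of a type and more RNA per cell cannot be told apart. Without the second 129 TG mouse limma called 0 ciliated genes (11 at an unadjusted p under 0.05) and 2 club cell genes; against the 2 other resistant strains alone it called 1 and 3.

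Of 11 alveolar type 1 genes 18.2% were called, and of 28 fibroblast genes 21.4%, against 8.58% of all genes. Pdpn counted in both lists. Pdpn, the podoplanin of alveolar type 1 cells, had 10.97, 11.15 and 11.19 in 129 TG lungs, against a lowest of 11.37, a median of 11.67 and a highest of 12 in the other TG lungs (-0.58, SE 0.06, adjusted p 9.9e-06). Akap5, an anchoring protein for protein kinase A, had 11.25, 11.22 and 11.22 in 129 TG lungs, against a lowest of 11.50, a median of 11.82 and a highest of 12.18 in the other TG lungs (-0.62, SE 0.08, adjusted p 6.7e-05). The other 9 of the 11 alveolar type 1 genes were not called, and the list median was -0.01. Akap5 had 11.85 in the 129 WT lung, inside the 11.58 to 12.09 of the other WT lungs. Tcf21, a transcription factor of lipofibroblasts, had 11.10, 11.03 and 10.85 in 129 TG lungs, against a lowest of 9.34, a median of 10.31 and a highest of 10.84 in the other TG lungs (0.79, SE 0.11, adjusted p 0.00033). Against the 2 other resistant strains alone Tcf21 had 0.40 (adjusted p 0.079). Has1, a hyaluronan synthase, had 7.97, 8.12 and 8.04 in 129 TG lungs, against a lowest of 7.31, a median of 7.51 and a highest of 7.71 in the other TG lungs (0.54, SE 0.08, adjusted p 0.00057). Of the 28 fibroblast genes 3 were higher and 3 lower, with a median of 0.00. Of the 18 alveolar type 2 genes limma called 0, with 1 at an unadjusted p under 0.05.

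Of 23 measured IGF and growth factor genes, 2 were higher and 3 lower in 129 TG lungs, with a median of -0.02. The called share was 21.7%, against 8.58% of all genes (4.33% higher and 4.25% lower). Of 20 measured retinoid genes 3 were higher and 0 lower (15% called), with a median of 0.06. Against the 2 other resistant strains alone limma called 0 retinoid genes (5 at an unadjusted p under 0.05). Igfbp3, a binding protein of insulin-like growth factors, had 10.23, 10.46 and 9.56 in 129 TG lungs, against a lowest of 8.34, a median of 8.71 and a highest of 9.60 in the other TG lungs (1.25, SE 0.20, adjusted p 0.00082). It had 11.44 in the 129 WT lung, against 10.27 to 11.19 in the other WT lungs. Lrat, which esterifies retinol for storage, had 11.73, 12.45 and 11.77 in 129 TG lungs, against a lowest of 9.25, a median of 11.10 and a highest of 12.02 in the other TG lungs (0.99, SE 0.20, adjusted p 0.0056). C3H, at 11.81 to 12.02, had a like level, and the difference against the 2 other resistant strains alone was 0.18 (adjusted p 0.76). Rarb, a retinoic acid receptor, was higher by 0.46 (adjusted p 0.0042), and by 0.33 (adjusted p 0.075) against the 2 other resistant strains alone. Fgf2, a fibroblast growth factor, was lower by -0.59 (SE 0.09, adjusted p 0.00057), and Hbegf, an EGF receptor ligand, by -0.37 (adjusted p 0.041). Fgf2 had -0.34 (adjusted p 0.06) against the 2 other resistant strains alone, and Hbegf -0.22 (adjusted p 0.26) against the prone strains alone. Of 35 Wnt pathway genes 2 were higher and 6 lower, so that 22.9% were called against 8.58% of all genes. Beside Fzd6 the lower genes included the secreted Wnt antagonist Frzb (-0.88, adjusted p 0.0063) and the R-spondin receptor Lgr6 (-0.56, adjusted p 0.0012). The Wnt deacylase Notum was higher (0.36, adjusted p 0.0018). Against the 2 other resistant strains alone, 1 of the 6 lower Wnt genes was lower.

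Of 21 interstitial macrophage and monocyte genes, 5 were lower and 1 higher in 129 TG lungs, with a median of -0.07. The called share was 28.6%, against 8.58% of all genes (4.33% higher and 4.25% lower). Ms4a7, a membrane protein of tissue macrophages, had 7.45, 7.03 and 7.18 in 129 TG lungs, against a lowest of 6.77, a median of 7.85 and a highest of 9.15 in the other TG lungs (-0.74, SE 0.10, adjusted p 0.00014). C1qb (-0.50) and C1qa (-0.44), chains of the first complement component, were lower, and also lower in the 129 WT lung by -0.76 and -0.70. Adgre4, a monocyte adhesion receptor, had 9.64, 8.52 and 8.13 in 129 TG lungs, against a lowest of 6.87, a median of 7.92 and a highest of 8.46 in the other TG lungs (0.99, SE 0.25, adjusted p 0.018). Without the first 129 TG mouse it had 0.55 (adjusted p 0.16), and against the 2 other resistant strains alone 0.72 (adjusted p 0.16). Against the 2 other resistant strains alone 1 gene of the list was lower, and likewise 1 without the second 129 TG mouse. Of 13 class II antigen genes 3 were higher, H2-Ab1 (0.75), H2-Eb2 (0.93) and H2-Oa (0.53), and H2-Ea was lower, so that 30.8% were called. C57BL6/J TG lungs were at the 129 level for H2-Ea, H2-Ab1 and H2-Eb2. H2-Ab1 had 12.98 and 12.88 in C57BL6/J TG lungs, against 12.93, 13.02 and 12.89 in 129. H2-Eb2 had 9.15 and 9.28 in C57BL6/J TG lungs, against 8.91, 9.33 and 9.26 in 129. The class II genes differ in sequence between H2 haplotypes, so their values are uncertain. Of 20 B and plasma cell genes 2 were higher, Ly6d, a lymphocyte surface protein (1.33, adjusted p 0.014), and Mzb1, a chaperone of antibody secretion (0.43, adjusted p 0.015), beside 1 lower. The called share of this list was 15%, against 8.58% of all genes. Ms4a1, which encodes the B cell antigen CD20, had -0.36 (adjusted p 0.53).

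Neutrophil genes were high in 1 mouse of the 3. Retnlg, a resistin-like protein of neutrophils, had 11.42, 8.51 and 7.89 in 129 TG lungs, against a lowest of 6.90, a median of 7.58 and a highest of 8.81 in the other TG lungs (1.54, SE 0.46, adjusted p 0.045). Mmp9, a gelatinase of neutrophil granules, had 10.99, 8.19 and 8.33 in 129 TG lungs, against a lowest of 7.50, a median of 7.92 and a highest of 8.52 in the other TG lungs (1.26, SE 0.37, adjusted p 0.044). S100a9 had 11.40, 7.71 and 7.46, and S100a8 10.96, 7.0 and 6.70, in the 129 TG lungs; these calgranulin genes, with 1.46 (adjusted p 0.091) and 1.38 (adjusted p 0.14), did not pass. The mean of the 19 neutrophil genes was 9.05 in the first 129 TG mouse and 7.52 and 7.46 in the others, against 7.22 to 7.88 in the other TG lungs. Without that mouse Retnlg had 0.47 and Mmp9 0.35, and neither was called. Serpina3n, an acute-phase protease inhibitor, had 12.87, 12.69 and 12.74 in 129 TG lungs, against a lowest of 11.32, a median of 12.26 and a highest of 12.93 in the other TG lungs (0.62, SE 0.15, adjusted p 0.015). The strain difference was larger without the transgene (1.16), with 12.38 in the single 129 WT lung, against 10.27 to 11.67 in the other WT lungs. Of 29 acute-phase and IL-6 genes 4 were higher and 0 lower, so that 13.8% were called against 8.58% of all genes. Without the first or the second 129 TG mouse limma called 0 (9 and 7 at an unadjusted p under 0.05). Serpina3n had 0.57 to 0.66 without 1 of the 129 TG mice and was not called then.

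Heart muscle genes were measured because pulmonary vein walls carry cardiac muscle in mice. Of 19 such genes 3 were higher and 2 lower, so that 26.3% were called against 8.58% of all genes. Against the 2 other resistant strains alone 0 were higher (1 at an unadjusted p under 0.05 in limma) and 1 lower, and against the prone strains alone 6 were higher and 1 lower. Myl7, the atrial light chain of myosin, had 10.44, 10.75 and 10.62 in 129 TG lungs, against a lowest of 8.95, a median of 9.86 and a highest of 10.88 in the other TG lungs (0.91, SE 0.18, adjusted p 0.0047), and its difference against the 2 other resistant strains alone was 0.51 (adjusted p 0.18). The list mean was 8.88 to 9.10 in 129 TG lungs, against 8.38 to 9.49 in the other TG lungs, and the groups overlapped.

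Of the Mir17 cluster on chromosome 14, Mir19a and Mir19b-1 were higher in 129 TG lungs and were chosen after their values were seen. Their mature products are shown because these 2 members share a seed (bases 2 to 8, in capitals) that Mir17, Mir18 and Mir20a do not. Sequences are from RefSeq, GRCm38.p6, plus strand.
mmu-miR-19a-3p, chr14:115044048-115044070: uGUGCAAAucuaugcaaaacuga
mmu-miR-19b-3p, chr14:115044358-115044380: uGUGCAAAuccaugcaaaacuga
Mir19b-1 had 5.39, 5.25 and 5.38 in 129 TG lungs, against a lowest of 4.73, a median of 4.91 and a highest of 5.07 in the other TG lungs (0.42, SE 0.06, adjusted p 0.00045). Mir19a had 4.77, 4.58 and 4.67 in 129 TG lungs, against a lowest of 4.17, a median of 4.36 and a highest of 4.59 in the other TG lungs (0.29, SE 0.07, adjusted p 0.015). Mir17 (0.02), Mir18 (0.31), Mir20a (0.11) and the host transcript Mir17hg (0.21) were not called. The 2 levels lie below the lower quartile of all genes on every array (6.68 to 6.86), and whether the probe sets read precursor or mature RNA was not tested.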

How the data were processed

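Total RNA of 24 right lung lobes was hybridised after biotin labelling, per the labels. The deposited table holds the authors' processed log2 intensities, identified as log2 from their range (3.41 to 14.75); the log base and the normalization were not given in the sources used here. The table is held in part: chromosomes 6 to 9 and X and most of chromosome 5 are mostly not analysed here, and Tgfb1 is not analysed here. Of 25284 probe sets used, 14539 had 1 symbol in GEO's platform annotation, 781 had several and 9964 were unnamed; 14480 were matched to RefSeq by Entrez identifier. The probe set of highest mean stood for each of 13499 genes. Probe sequences were not used, so strain variants under probes were not checked.

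All 24 arrays were fitted with limma 3.58.1 (R 4.3.3) as 12 groups of strain and genotype, and contrasts weighted the 5 other strains equally: 129 TG minus other TG, 129 WT minus other WT, the difference of the TG effects, and 129 TG minus 129 WT. The fit had 12 residual degrees of freedom. P-values were adjusted by Benjamini-Hochberg over all genes, and a gene was called at an adjusted p under 0.05. Nothing in the labels says more of the replicates than that they are separate mice, and the number of arrays limits the precision. Differences are log2, and SE is the moderated standard error of limma's fit.

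Genes were named by rule: of the genes called in TG lungs without overlap, the 12 largest differences each way; of those called in WT lungs with the 129 WT mouse outside the other WT mice, the 8 largest each way; those called in the difference of effects; up to 4 members of largest TG difference of a described list; H2-Ea and Nnt. Other genes are said to be chosen after their values were seen. The comparison, the 50 gene lists and the tests were chosen with earlier results of these data known. Scripts were tested on simulated data. Alternatives changed the other strains compared, the unit, normalization, weights, filter, probe set rule, replicate block, and left out each mouse or strain.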

Additional observations from a re-analysis of the deposited data

Results flagged for a closer look

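The effect of the transgene differed between 129 and the mean of the other strains for 2 genes. For Chil1 the difference, 129 TG effect minus the other strains' TG effect, was 1.33: the TG effect was 1.76 in 129, where the single WT lung had 11.32. For Scarna13 it was -1.36: the TG effect was -1.79 in 129, where the single WT lung had 11.25. A/J had a like drop, from 10.80 in its single WT lung to 8.64, 9.11 and 8.91 in TG lungs. The test was the interaction contrast in limma, and the cause was not tested.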

How the results depend on the processing

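The replicate numbers did not pair the mice: over 40 same-numbered pairs of TG mice the correlation of deviations was -0.15 to 0.13, median -0.02, and 7 of 17 mice correlated best with their own number; with the replicate block limma called 1055 genes in TG lungs, 141 in WT lungs, 3 for the difference of effects and 297 for 129 TG against 129 WT. For TG lungs the 1158 calls became 0 with strain means as the unit and 611 against the other resistant strains, of which 494 were among the 1158, 586 to 729 without 1 of the 129 TG mice and 1001 to 1303 without another mouse. For WT lungs the 198 calls became 97 against the other resistant strains, 343 with array weights and 127 without C57BL6/J. For the difference of effects the 2 calls became 8 against the prone strains, 4 after quantile normalization, 12 with array weights, 5 without A/J, 4 without Balb/cJ, 5 without C3H, 2 to 6 without 1 of the 129 TG mice and 2 to 15 without another mouse, 15 being without the third A/J TG mouse. For 129 TG against 129 WT the 398 calls became 635 with array weights and 226 to 343 without 1 of the 129 TG mice. The 326 genes without overlap became 520 without C3H and 541 to 690 without 1 of the 129 TG mice, since fewer mice must be cleared. The cause was not tested for the other changes. Of 3228 values of 98 named genes in TG lungs, 2902 kept direction and side of the threshold, 265 lost the call, 55 gained it and 6 turned sign, in genes that were not called: Col5a2 to 0.08 against the other resistant strains, Ighm to -0.12 with the mean over probe sets, Igfbp2 to -0.02 without Balb/cJ, and, without 1 of the 129 TG mice, Dhrs9 (-0.15 to 0.62), Ighm (-0.03 to 0.54) and Igfbp2 (-0.03 to 0.48). Genes below the lower quartile of intensity have little signal over background.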

Other observations

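Small nucleolar and Cajal body RNA genes, grouped by symbol after Scarna13 and Snora16a were seen, were often higher in 129 TG lungs. Of 38 measured, limma called 17 higher and 1 lower (4.33% and 4.25% over all genes), with a median log2 difference of 0.29. Their mean level was 8.08, 8.10 and 8.16 in 129 TG lungs, against 7.54 to 8.17 in the other TG lungs, where 2 Balb/cJ mice had 8.17 and 8.08. The 129 WT lung had 8.19, against 7.59 to 7.94 in the other WT lungs; the median difference there was 0.34, with 2 called higher. Their mean thus lay in 129 TG lungs above 12 of the 14 other TG mice. The part of RNA quality in these levels was not tested.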
